A study of Mus musculus with 8 samples.

Results

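The genes described here are 10 members of the p53 network: Trp53, which encodes p53 itself, its inhibitors Mdm2 and Mdm4, and 7 genes that p53 is known to induce for feedback, growth arrest or damage responses (Ccng1, Phlda3, Zmat3, Trp53inp1, Btg2, Plk2 and Aen). They were chosen by gene symbol, and each matched 1 of the 56030 rows of the count table. All 10 passed the filter on low counts. RNA sequencing covered crypt cells of the ileum of C57BL/6 mice, in 4 libraries of mice given CPT-11 (irinotecan, a prodrug whose product SN-38 traps topoisomerase I on DNA) at 20 mg per kg for 7 days and 4 libraries of mice given vehicle. Crypts are pockets of the gut wall where stem and dividing cells sit, and the comparison asks which crypt transcripts the drug course altered. The labels give no age, route or genotype beyond the strain, describe release of the crypts with EDTA and their digestion with trypsin but no sort, and leave it unsaid whether every library stands for its own mouse, so the p-values speak only of differences among these libraries, some of which may be technical.

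p53 is a transcription factor that is held at a low level by MDM2, a ubiquitin ligase that marks it for destruction, and by MDM4, a relative that masks its activation domain. DNA damage frees p53 from both, largely through changes to the protein rather than to its transcript, and p53 then induces Mdm2, which closes a negative feedback loop. In the intestine p53 is known for arrest and death of crypt cells after irradiation and chemotherapy.

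Total counts were 20790164 to 23479121 per library. All 7 epithelial markers checked were expressed, and their summed level was 12010 to 16450 CPM (counts scaled to a common library size) in CPT-11 libraries and 10880 to 12620 CPM in vehicle libraries. CPT-11 replicate 2 stood apart. Its TMM scaling factor was 0.731, against 0.977 to 1.10 in the other libraries, and its long genes (over 3558 bases) lay 1.01 lower than its short ones (up to 1998 bases), by the median on the log2 scale relative to vehicle. CPT-11 replicate 4 showed the same pattern at 0.525 lower, and the other 6 libraries lay between 0.153 lower and 0.175 higher. Results for the 10 genes are given without these libraries where that changes a call. Markers of other cells were read too, and some of them differed between groups. Summed enterocyte markers were 21120 to 64560 CPM in CPT-11 libraries and 12050 to 19850 CPM in vehicle libraries, with the highest value in CPT-11 replicate 2. Of the 11 enterocyte markers, 1 passed (Fabp2, which rose), while 5.5% of all genes tested passed in either direction. Summed stem cell markers were 388 to 564 CPM in CPT-11 libraries and 1339 to 1582 CPM in vehicle libraries. Most of that sum was Olfm4 (mean 356 CPM with CPT-11 and 1236 CPM with vehicle). Of the 6 stem cell markers, 3 fell (Lgr5, Olfm4 and Smoc2). The other 3 did not pass, with estimates above 0 for Ascl2 and Sox9 and below 0 for Axin2. Of 6 tested B and plasma cell markers, 4 rose. Over all genes tested, 2.98% rose and 2.52% fell. Summed goblet cell markers were 10600 to 36620 CPM in CPT-11 libraries, highest in replicate 2, and 10500 to 14650 CPM in vehicle libraries. These ranges overlapped, and 0 of the 6 goblet cell markers passed. Neutrophil markers summed to at most 0.795 CPM in any library, and Ly6g was at 0. Their part in the results was not tested. In such bulk samples, fewer cells of a type and less RNA per cell cannot be told apart.

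The promoters of the genes are shown first, because p53 is a transcription factor. Its binding to them was not measured here. RefSeq promoter windows on GRCm38.p6, 250 bases before to 50 bases after each start, were at hand for 8 of the 10 genes, all except Zmat3 and Trp53inp1. The response element of p53 is a pair of 10-base units, and the exact consensus of 1 unit, which reads the same on both strands, was found in 2745 of 32851 mouse promoters (8.36%). It was present in the windows of Ccng1, Aen, Mdm2 and Trp53 and in none of those of Phlda3, Btg2, Plk2 and Mdm4. Units placed end to end, with at most 3 mismatches in 20 bases and the inner C and G of both units kept, were found in 453 promoters (1.38%), among them those of Ccng1 (1 mismatch), Aen (3) and Trp53 (3). This pattern was set after a first one, with a spacer of 0 to 13 bases, at most 2 mismatches and intact cores (2.12% of promoters), had matched 0 of the 8 genes with a window. A match is a description of letters and not of binding, and known elements of several of these genes lie outside such windows, as in the first intron of Mdm2. Of the shorter promoter motifs, searched on both strands, the GC box GGGCGG (35.7% of all promoters) was in the windows of Phlda3, Btg2, Plk2, Mdm2 and Aen, and the box CCAAT (37.4% of all promoters) in those of Ccng1, Aen, Mdm2, Trp53 and Btg2. The windows below are those of cyclin G1 and Aen, which rose and hold the paired pattern, of Mdm2, the feedback gene, with 1 unit, and of Phlda3, which had the highest fold change of the 10 and holds none. They are written 5′ to 3′ on the gene's strand, with matches to a unit or a pair of units in capitals. They lie at chr11:40755237-40755536 (minus strand, Ccng1), chr7:78895808-78896107 (plus strand, Aen), chr10:117710709-117711008 (minus strand, Mdm2) and chr1:135765835-135766134 (plus strand, Phlda3).
Ccng1: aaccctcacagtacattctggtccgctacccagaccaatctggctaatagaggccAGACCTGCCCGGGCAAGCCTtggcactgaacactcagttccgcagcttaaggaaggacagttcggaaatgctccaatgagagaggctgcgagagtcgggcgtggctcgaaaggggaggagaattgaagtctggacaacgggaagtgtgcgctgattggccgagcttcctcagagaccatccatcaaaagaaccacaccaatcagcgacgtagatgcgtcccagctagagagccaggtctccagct
Aen: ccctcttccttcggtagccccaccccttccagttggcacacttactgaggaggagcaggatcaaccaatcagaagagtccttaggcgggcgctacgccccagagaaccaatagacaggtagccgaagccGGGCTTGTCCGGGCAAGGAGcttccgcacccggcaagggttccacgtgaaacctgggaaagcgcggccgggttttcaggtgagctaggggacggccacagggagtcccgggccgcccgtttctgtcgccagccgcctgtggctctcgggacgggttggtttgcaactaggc
Mdm2: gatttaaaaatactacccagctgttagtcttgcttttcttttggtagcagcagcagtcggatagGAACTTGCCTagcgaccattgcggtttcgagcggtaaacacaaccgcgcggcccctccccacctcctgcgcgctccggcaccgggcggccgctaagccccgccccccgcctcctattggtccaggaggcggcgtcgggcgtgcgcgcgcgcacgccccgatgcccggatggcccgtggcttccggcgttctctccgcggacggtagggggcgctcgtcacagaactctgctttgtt
Phlda3: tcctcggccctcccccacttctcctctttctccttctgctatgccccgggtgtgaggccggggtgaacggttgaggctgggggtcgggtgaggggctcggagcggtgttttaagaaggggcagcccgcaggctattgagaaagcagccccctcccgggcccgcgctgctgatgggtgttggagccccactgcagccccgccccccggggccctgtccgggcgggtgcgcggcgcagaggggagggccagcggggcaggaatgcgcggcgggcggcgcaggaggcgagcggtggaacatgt
The capitals begin 195 bases before the start of Ccng1, 121 before the start of Aen used here and 186 before that of Mdm2. Aen has another window, for a start further upstream (chr7:78895677-78895976), in which the same pair begins 10 bases after the start. In the window of Trp53 the pair begins 75 bases before the start and reads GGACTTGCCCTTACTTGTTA.

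By GENCODE M21 on GRCm38, all 10 genes are protein-coding, and none shares an exonic base with another annotated gene. Mdm4 (chr1:132959484-133030561), Btg2 (chr1:134075170-134079120) and Phlda3 (chr1:135766119-135769136) lie within 2809653 bases of chromosome 1. Trp53 (chr11:69580359-69591873) starts 103 bases from the oppositely oriented Wrap53. An estimated count need not be whole where reads are shared between genes. All 8 values of Aen, 3 of Mdm4, 2 of Zmat3 and 1 of Mdm2 were not whole, so those levels are less certain. The table's rows Mdm4-ps and Trp53-ps had at most 6.32 counts in any library.

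Of the 10 genes, 6 rose with CPT-11, 0 fell and 4 did not pass (edgeR quasi-likelihood test, Benjamini-Hochberg adjusted over 14011 genes, threshold 0.05). Over all genes tested, 2.98% rose and 2.52% fell, or 5.5% in either direction. The 10 genes were chosen with earlier results of these data known, so this contrast is a description and not a test. DESeq2 called 8 of the 10 higher, against 7.46% of all genes, and limma-voom 5, against 2.93%. The 6 were Phlda3, Plk2, Ccng1, Zmat3, Aen and Trp53inp1, and the 4 were Mdm2, Btg2, Trp53 and Mdm4. The median log2 fold change of the 10 was 0.91, against 0.014 over all genes, and all 10 estimates were above 0. The groups did not overlap for those 6 genes, with every CPT-11 library above every vehicle library, as was so for 8.40% of all genes tested (10.1% had every CPT-11 library below). Overlap was judged at 4 significant digits, a rule set after it was seen that the Btg2 groups touch there. Leaving out 1 library gave 4 to 7 genes, with 4 without vehicle replicate 2, 3 or 4.

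**Figure D1:**
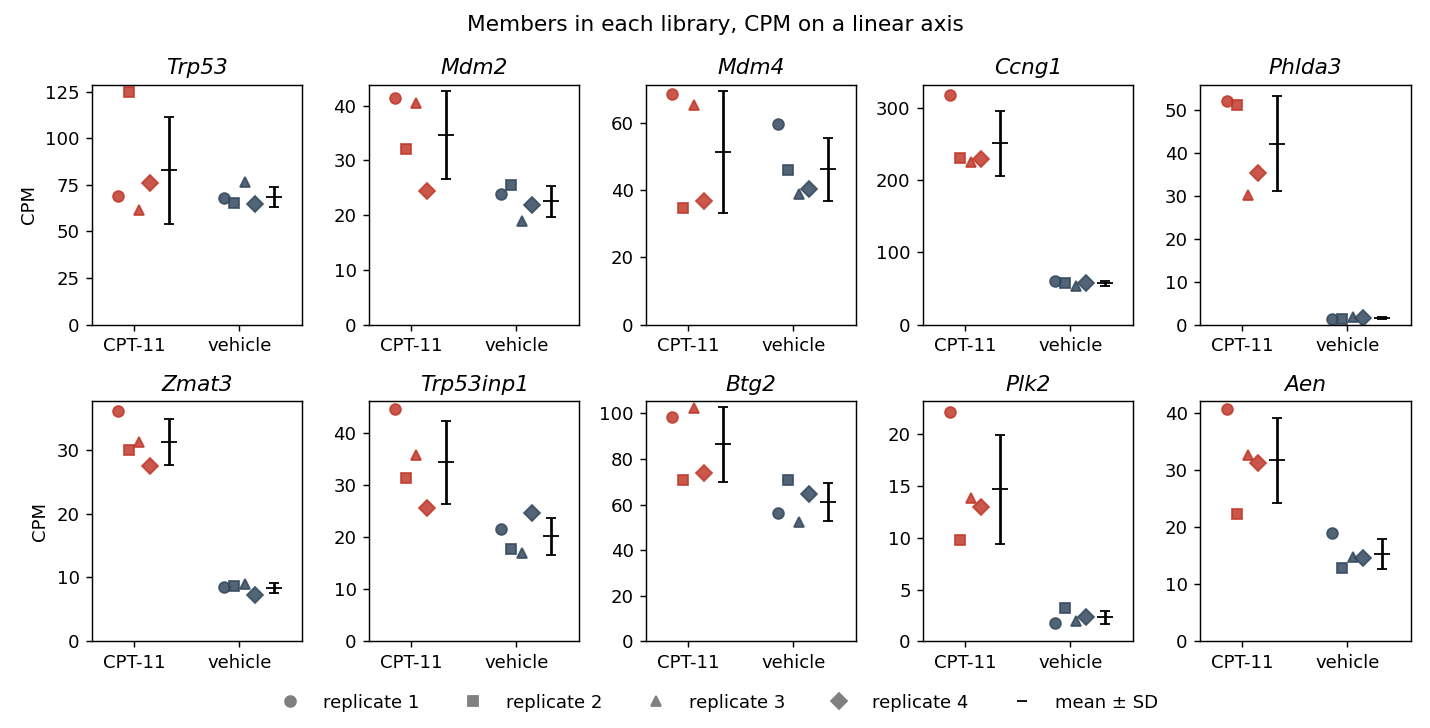
CPM of each gene (linear axes from 0) in 4 CPT-11 and 4 vehicle libraries, 1 marker per library and mean ± SD at the right of each group. Phlda3, Plk2, Ccng1 and Zmat3 separate widely, Aen and Trp53inp1 separate narrowly, and Trp53, Mdm2 and Mdm4 overlap between groups.

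The p53 transcript itself was abundant in both groups. Trp53 stood at 68.9, 125.0, 61.5 and 75.7 CPM in CPT-11 replicates 1 to 4, against 68.1, 65.1, 76.3 and 65.0 CPM in vehicle replicates 1 to 4. CPT-11 replicate 2 alone lay above all vehicle libraries, and the other 3 lay within or below their range. The log2 fold change was 0.27 ± 0.21 (SE), with a 95% interval of 0.87-fold to 1.67-fold (adjusted p = 0.438). It was 0.013 without CPT-11 replicate 2, -0.069 without replicates 2 and 4, and did not pass in any of 18 alternatives (adjusted p 0.216 to 0.959). Its neighbour Wrap53, which encodes a telomerase assembly factor, likewise had its highest CPT-11 value in replicate 2 (19.9 CPM, against 11.8 to 12.4 CPM in the other 3) and did not pass (log2 fold change 0.32, adjusted p = 0.354). Wrap53 was singled out for its position.

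The inhibitors came next. Mdm2 stood at 41.5, 32.2, 40.4 and 24.4 CPM with CPT-11, against 23.9, 25.6, 19.0 and 21.8 CPM with vehicle. Of the CPT-11 libraries 3 lay above all vehicle libraries, and replicate 4 lay among them. Its log2 fold change of 0.62 ± 0.18 (SE), with an interval of 1.16-fold to 2.04-fold before adjustment, did not pass (adjusted p = 0.0804). It passed in 5 of 18 alternatives, over which the adjusted p ran from 0.00234 to 0.227: without CPT-11 replicate 4 (0.0381), without replicates 2 and 4 (0.00234), with the trend on gene length removed (0.0348), by DESeq2 (0.0230) and by limma-voom with quality weights (0.00329). Mdm4 stood at 68.6, 34.7, 65.1 and 36.8 CPM with CPT-11, against 59.5, 46.0, 38.7 and 40.4 CPM with vehicle. CPT-11 replicates 1 and 3 lay above all vehicle libraries and replicates 2 and 4 below all of them. The log2 fold change was 0.16 ± 0.25 (SE), an interval of 0.76-fold to 1.64-fold (adjusted p = 0.720), and it ranged from -0.0175 without CPT-11 replicate 1 to 0.54 without CPT-11 replicates 2 and 4.

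As inhibitors of 1 protein, Mdm2 and Mdm4 were also compared with each other within each library. The log2 ratio of Mdm2 to Mdm4 CPM (0.5 CPM added to each) was -0.72, -0.10, -0.68 and -0.58 in CPT-11 replicates 1 to 4, against -1.30, -0.83, -1.01 and -0.87 in vehicle replicates 1 to 4. The ratio was higher in every CPT-11 library than in any vehicle library, by 0.48 on average (exact permutation test, two-sided, p = 0.0286, the smallest that 4 against 4 libraries allow). The difference was 0.34 when CPT-11 replicate 2 was left out and 0.38 when vehicle replicate 1 was (exact p = 0.0571 each), and 0.30 without CPT-11 replicates 2 and 4 (exact p = 0.133, where the smallest possible is 0.0667). The table's lengths for Mdm2 and Mdm4 are 3099 and 1914 bases, while their annotated exons cover 5083 and 14798 bases. Which of the 2 counts as the longer is thus uncertain. The trend on gene length could bear on this ratio. With that trend removed by the table's lengths, the log2 fold change was 0.67 for Mdm2 (0.62 before) and 0.099 for Mdm4 (0.16 before). The 2 estimates thus lay further apart by the table's lengths. By the exon lengths the direction is not settled, and the ratio itself was not tested with the trend removed. The ratio of Mdm2 to Trp53 differed less clearly. It was -0.73, -1.94, -0.60 and -1.61 with CPT-11, against -1.49, -1.33, -1.98 and -1.55 with vehicle, and the groups overlapped (difference 0.37, exact permutation p = 0.371). That difference was 0.93 without CPT-11 replicates 2 and 4 (exact p = 0.0667, the smallest possible) and 0.61 without replicate 2 alone (exact p = 0.171). It fell short of that when CPT-11 replicate 1 (0.20), CPT-11 replicate 3 (0.16) or vehicle replicate 3 (0.24) was left out. With 2 ratios tested, the Benjamini-Hochberg adjusted values were 0.0571 and 0.371.

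**Figure D2:**
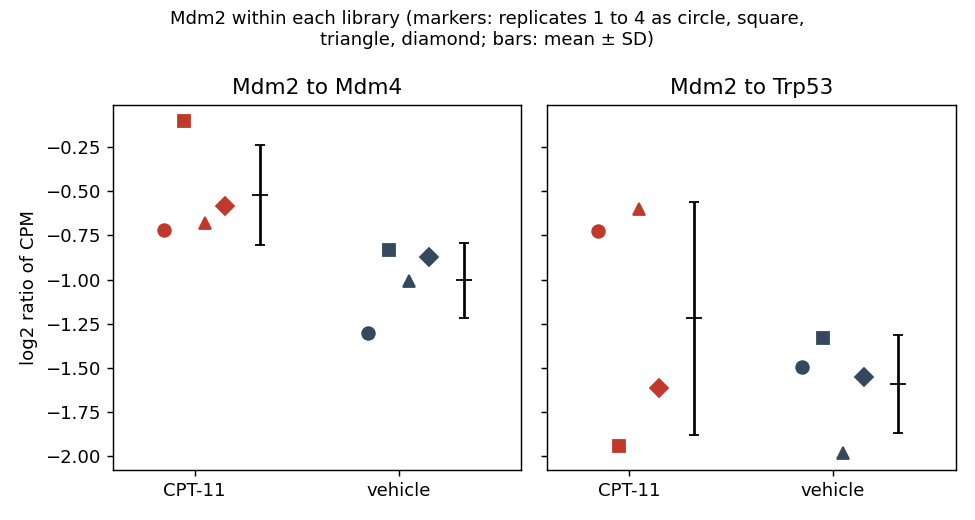
The log2 ratio of Mdm2 to Mdm4 and of Mdm2 to Trp53 in each library, with mean ± SD. The Mdm2 to Mdm4 ratio lies between -0.72 and -0.10 in CPT-11 libraries, above all vehicle libraries, while the Mdm2 to Trp53 ratios overlap.

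Among the feedback targets, Ccng1 had the highest level. Cyclin G1 recruits a phosphatase that acts on MDM2. Ccng1 stood at 318, 231, 226 and 229 CPM with CPT-11, against 60.1, 57.8, 53.1 and 57.3 CPM with vehicle. CPT-11 replicate 1 lay apart from the other 3, which were close together. The rise was 4.40-fold (log2 fold change 2.14 ± 0.15 SE, adjusted p = 7.67e-05). Zmat3, an RNA-binding zinc finger protein that p53 induces and that has tumour suppressor activity in mice, stood at 36.2, 30.0, 31.3 and 27.5 CPM with CPT-11, against 8.50, 8.72, 8.98 and 7.29 CPM with vehicle. Its CPT-11 libraries varied least of the 10 genes, with a coefficient of variation of 11.6%, and it rose 3.73-fold (log2 fold change 1.90 ± 0.14 SE, adjusted p = 0.00011).

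Phlda3 encodes a small protein with a pleckstrin homology domain that competes with Akt for membrane lipids and so restrains survival signalling. It stood at 52.1, 51.2, 30.2 and 35.4 CPM with CPT-11, against 1.22, 1.37, 1.84 and 1.62 CPM with vehicle. The vehicle values rest on 28 to 44 counts per library and the CPT-11 values on 716 to 1148. CPT-11 replicates 1 and 2 were the higher pair, so replicate 2, the lowest CPT-11 library for 4 of the 10 genes, was not low here. The log2 fold change was 4.79 ± 0.25 (SE), a rise of 27.7-fold with an interval of 19.0-fold to 40.6-fold (adjusted p = 9.26e-06), the 8th highest of 14011 genes.

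The arrest and damage-response genes differed widely in size of response. Plk2, a polo-like kinase that acts in centriole duplication and the stress response, stood at 22.2, 9.74, 13.9 and 12.95 CPM with CPT-11, against 1.79, 3.22, 2.004 and 2.30 CPM with vehicle. All CPT-11 libraries lay above the vehicle ones on 158 to 488 counts, against 41 to 68, and it rose 6.32-fold (log2 fold change 2.66 ± 0.29 SE, adjusted p = 0.00129). Aen, a nuclease that p53 induces and that promotes apoptotic DNA breakdown, stood at 40.6, 22.3, 32.6 and 31.3 CPM with CPT-11, against 19.0, 12.9, 14.8 and 14.5 CPM with vehicle. The lowest CPT-11 library, replicate 2, was close to the highest vehicle library, and the rise was 2.07-fold (log2 fold change 1.05 ± 0.20 SE, adjusted p = 0.0167). The call of Aen was lost without vehicle replicate 2 (0.0587), 3 (0.0709) or 4 (0.0541).

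Trp53inp1 encodes a stress protein of the nucleus and of autophagosomes that promotes p53 activity, and so forms a positive loop. It stood at 44.6, 31.2, 35.8 and 25.6 CPM with CPT-11, against 21.5, 17.8, 16.8 and 24.5 CPM with vehicle. CPT-11 replicate 4 and vehicle replicate 4 nearly met. Its log2 fold change of 0.77 ± 0.19 (SE) passed narrowly (adjusted p = 0.04996). The call was lost when any 1 vehicle library, or 1 of CPT-11 replicates 1 and 3, was left out (0.0543 to 0.162), with upper-quartile scaling (0.0513) and by limma-voom (0.0517). Btg2, an antiproliferative protein that recruits the deadenylase of messenger RNAs and is also an immediate-early gene, stood at 98.6, 70.7, 102 and 74.1 CPM with CPT-11, against 56.2, 70.7, 52.4 and 64.8 CPM with vehicle. CPT-11 replicate 2 and vehicle replicate 2 were equal to 3 digits, and the other CPT-11 libraries lay above all vehicle libraries. Its log2 fold change of 0.50 ± 0.16 (SE), an interval of 1.10-fold to 1.82-fold before adjustment, did not pass (adjusted p = 0.101). Its adjusted p ran from 0.00341 to 0.261 over the 18 alternatives and passed in 5: leaving out CPT-11 replicate 2 (0.0296) or 2 and 4 (0.00558), removing the length trend (0.0493), DESeq2 (0.0340) and quality weights (0.00341).

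**Figure D3:**
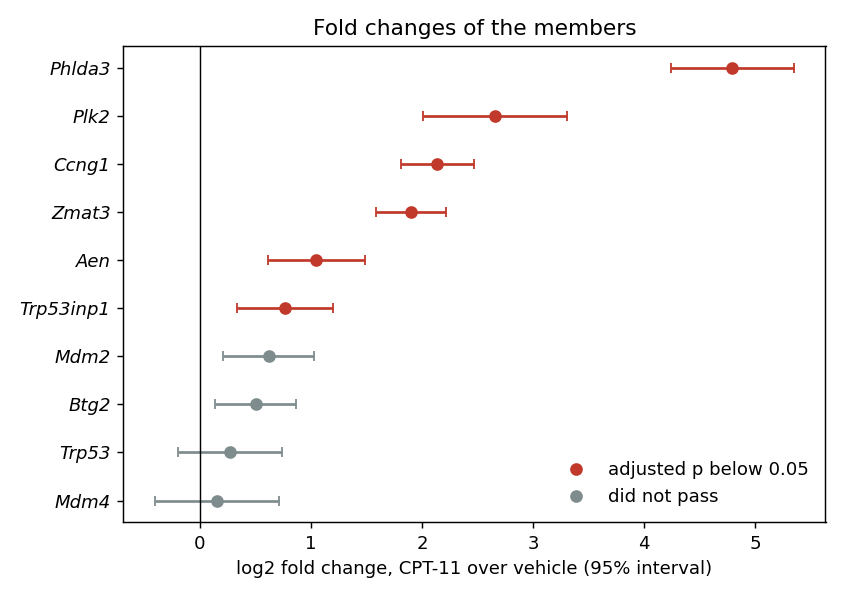
Log2 fold change of each gene, CPT-11 over vehicle, with its 95% interval (before adjustment) from the edgeR fit, 4 libraries each. The estimates run from 0.16 for Mdm4 to 4.79 for Phlda3, with red for the 6 genes past the threshold and grey for the 4 that were not.

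The CPT-11 libraries varied more than the vehicle libraries for all 10 genes, by coefficient of variation. Replicate 1 was the highest CPT-11 library for 8 of the 10. For 7 of the 10 (Mdm2, Mdm4, Zmat3, Trp53inp1, Btg2, Plk2 and Aen) replicates 1 and 3 both lay above replicates 2 and 4, the libraries with fewer reads from long genes. Trp53, Ccng1 and Phlda3 did not follow this order. How many of all genes share these features was not counted, so they are not given as traits of these 10. Without replicates 2 and 4, 8 genes rose rather than 6, Mdm2 and Btg2 being added, while the number over all genes was 637 of 14600 rather than 417 of 14011. With the trend on gene length removed, 8 rose as well, beside 684 of 14011 over all genes.

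**Figure D4:**
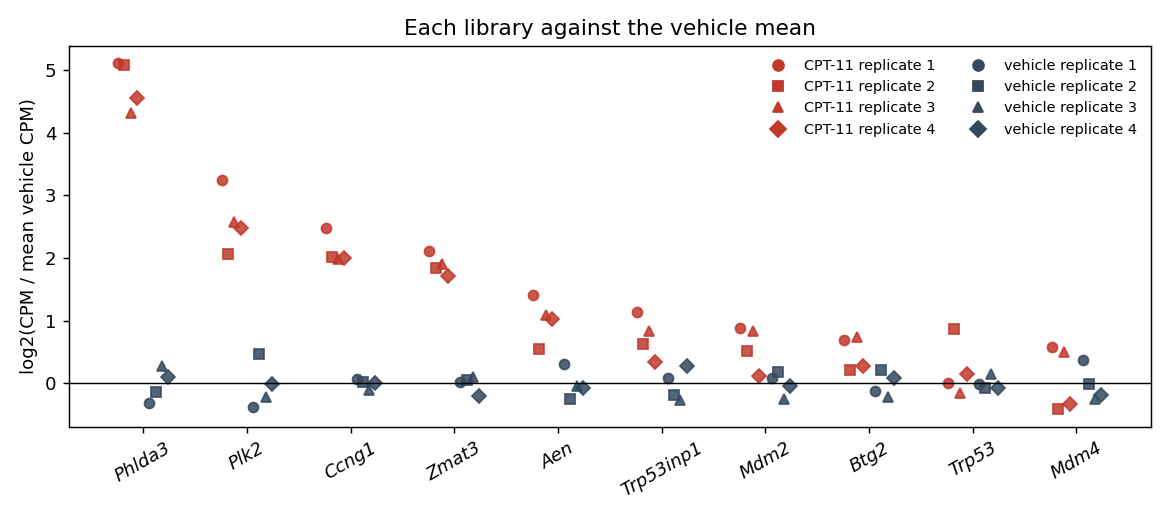
Each library's CPM over the mean vehicle CPM, on a log2 scale, for CPT-11 (red) and vehicle (dark) libraries, genes ordered by fold change. CPT-11 replicate 2 (square) is the lowest CPT-11 library for Plk2, Aen, Btg2 and Mdm4 and the highest for Trp53.

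Per length, the order of the genes changed with treatment. With CPT-11 the highest levels were those of Ccng1 (71.5 ± 12.8 CPM per kilobase of the table's gene length, mean ± SD, n = 4), Trp53 (46.8 ± 16.2), Btg2 (31.5 ± 5.95), Phlda3 (29.4 ± 7.74) and Mdm4 (26.8 ± 9.43). They were followed by Aen (14.2 ± 3.37), Mdm2 (11.2 ± 2.58), Trp53inp1 (6.34 ± 1.49), Plk2 (5.25 ± 1.89) and Zmat3 (4.01 ± 0.466), and the libraries of every pair of neighbours in this order overlapped. With vehicle Trp53 was highest (38.7 ± 3.02), above Mdm4 (24.1 ± 4.93) and Btg2 (22.3 ± 3.02), which overlapped. Ccng1 (16.3 ± 0.833) was below them, and Mdm2 (7.28 ± 0.919) and Aen (6.86 ± 1.16) overlapped below it. Trp53inp1 stood at 3.73 ± 0.656, and Zmat3 (1.07 ± 0.0955), Phlda3 (1.05 ± 0.189) and Plk2 (0.832 ± 0.226) were lowest, each overlapping the next. The table gives Mdm4 a length of 1914 bases, while its annotated exons cover 14798, so its level per length is uncertain.

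Other genes of the pathway were read from lists of their own. Of 36 other p53 targets tested, 12 rose and 0 fell, against 2.98% and 2.52% of all genes (median log2 fold change 0.50). This list too was chosen with earlier results of these data known, so the contrast is only descriptive. The number that rose was 6 without vehicle replicate 1 or 3 and 7 without vehicle replicate 4 or CPT-11 replicate 1. It was 17 without CPT-11 replicates 2 and 4, 18 by DESeq2, 16 with the length trend removed (1 fell) and 24 with quality weights (1 fell). Cdkn1a, which encodes p21, the best known arrest target, was 254 ± 37.7 CPM with CPT-11 and 114 ± 16.8 CPM with vehicle (SD, n = 4 each). Bax, a pore former of apoptosis, was 124 ± 35.4 CPM with CPT-11 and 38.6 ± 3.19 CPM with vehicle (adjusted p = 0.00227). The log2 fold change was 3.10 for Eda2r, a receptor of the tumour necrosis factor family (adjusted p = 0.00179), 3.02 for the non-coding Pvt1 (adjusted p = 0.00358) and 2.35 for Gdf15, a secreted stress hormone (adjusted p = 0.00453), all between the estimates of Ccng1 and Phlda3. Ephx1, an epoxide hydrolase, stood at 2.75 (adjusted p = 9.26e-06). These genes were named for the smallest p of the list, and 24 of the 36 did not pass. Estimates were above 0 for 31 of the 36, against 51.3% of all genes. The lowest were those of Sesn1 (log2 fold change -0.51, adjusted p = 0.223) and Ddb2 (-0.38, adjusted p = 0.164).

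Of 21 kinases, acetyltransferases, ligases and other regulators of p53 tested, 0 rose and 0 fell by edgeR. Over all genes tested, 5.5% were called in either direction, a share at which few of 21 genes would be called. At an unadjusted p below 0.05 there were 4 of the 21, and the number of all genes at that level was not counted. Btg2, at an unadjusted edgeR p of 0.0115, was 1594th of 14011 genes by p. Many genes thus lay below 0.05, and the 4 are not given as a trait of this list. Limma-voom with quality weights called 2, beside 3170 of 14011 over all genes, while DESeq2 and limma-voom called 0. Log2 fold changes ran from -0.70 for Atm, the kinase of DNA breaks (adjusted p = 0.182), to 0.18, and 16 were below 0. Chek2, a checkpoint kinase that acts on p53, had the smallest p (12.9 ± 2.60 CPM with CPT-11 and 18.4 ± 2.63 CPM with vehicle, log2 fold change -0.50, adjusted p = 0.127). Of the 21, 2 passed without CPT-11 replicate 3, beside 1522 of 14159 over all genes.

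Paralogs of the 10 genes gave a comparison within families. Of 19 tested, 3 rose and 1 fell, against 2.98% and 2.52% of all genes. Phlda1 and Phlda2 rose (log2 fold changes 0.76 and 1.44, adjusted p = 0.0192 and 0.0419), both with smaller estimates than Phlda3, and Phlda2 was lost when 1 vehicle library (any of the 4) or 1 of CPT-11 replicates 1 and 4 was left out (0.0671 to 0.108). It was lost as well with CPT-11 replicates 2 and 4 both removed (0.0624) and with the length trend removed (0.0549). Phlda1 was lost without any 1 vehicle library (0.0589 to 0.0759). In the polo-like kinase family Plk3, a stress-responsive relative of Plk2, rose (7.76 ± 1.73 CPM with CPT-11 and 3.24 ± 0.740 CPM with vehicle, adjusted p = 0.0150), but did not pass when vehicle replicate 1 (0.0636) or 3 (0.0583) was left out. Plk1, the kinase that drives mitosis, fell (31.6 ± 2.86 CPM with CPT-11 and 60.4 ± 7.34 CPM with vehicle, adjusted p = 0.00449). Plk4, the kinase of centriole duplication, did not pass (log2 fold change -0.60, adjusted p = 0.0808), nor did Plk5 (1.21, adjusted p = 0.128), though Plk4 passed by DESeq2 (0.0269) and Plk5 with quality weights (0.0270). The partners of the other genes did not pass either: Ccng2 (log2 fold change 0.49, adjusted p = 0.241), Trp53inp2 (0.21, adjusted p = 0.301), Btg1 (0.10, adjusted p = 0.653) and Isg20 (-0.23, adjusted p = 0.652), a nuclease gene that lies 2214 bases beyond Aen. Without CPT-11 replicates 2 and 4, Ccng2 passed with a log2 fold change of 0.85 (adjusted p = 0.0159), as did Tob1, a relative of Btg2 (0.54, adjusted p = 0.0113, against 0.25 and 0.431 with all libraries). Both also passed with quality weights (0.0494 for Ccng2 and 0.0246 for Tob1). Trp63 was not tested, and Trp73, the other relative of p53, had 0 counts in all libraries. The number of paralogs called fell to 1 without vehicle replicate 1 or 3 and to 2 without vehicle replicate 2 or 4, and was 7 with quality weights.

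Btg2 and Plk2 also respond to growth factors and to handling, so genes of early response and dissociation are given beside them. Of 19 tested, 4 rose (Hspa1a, Hspa1b, Junb and Egr1) and 0 fell, against 2.98% and 2.52% of all genes. The 20 genes listed summed to 939 to 1158 CPM in CPT-11 libraries and 666 to 805 CPM in vehicle libraries. None of the 20 was at 0 in all libraries. Only 1 was called without vehicle replicate 1, 3 or 4, and 2 without CPT-11 replicate 1 or by limma-voom, against 7 with quality weights. Junb had 116 ± 9.91 CPM with CPT-11 and 70.9 ± 11.9 CPM with vehicle (adjusted p = 0.0229), and Egr1 15.9 ± 4.74 CPM with CPT-11 and 7.92 ± 1.90 CPM with vehicle (adjusted p = 0.0493). The part of handling in the values of Btg2 and Plk2 was not tested. Of 24 genes of dividing cells, 10 fell and 0 rose, against 2.52% and 2.98% of all genes. The 24 summed to 1059 to 1378 CPM in CPT-11 libraries and 1576 to 2040 CPM in vehicle libraries. Among those that fell were Racgap1 (log2 fold change -1.07, adjusted p = 0.00179), Aurkb (-1.10, adjusted p = 0.00216), Nusap1 (-1.14, adjusted p = 0.00453), Kif11 (-1.07, adjusted p = 0.00721) and Top2a (-1.35, adjusted p = 0.0107). The count was 6 without CPT-11 replicate 4 or vehicle replicate 1, 3 or 4.

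Finally, genes with the most similar profile over the 8 libraries were listed for the feedback gene Mdm2 and for Phlda3, by Euclidean distance between scaled log2 CPM profiles, among 11051 other genes. The nearest to Phlda3 were Ephx1 (0.200), Kazn (0.383) and Ccng1 (0.384), and Zmat3 was next (0.395). The nearest to Mdm2 were Flvcr1 (0.647), Prpf39 (0.676) and Antxr2 (0.680), none of which passed the test (adjusted p = 0.0558, 0.217 and 0.0667), though Flvcr1 and Antxr2 passed without CPT-11 replicates 2 and 4. Btg2 was nearest to Mdm2 among the 10 genes (1.08, 37th in order), followed by Trp53inp1 (1.21). These distances describe 8 libraries that fall into 2 groups.

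**Figure D5:**
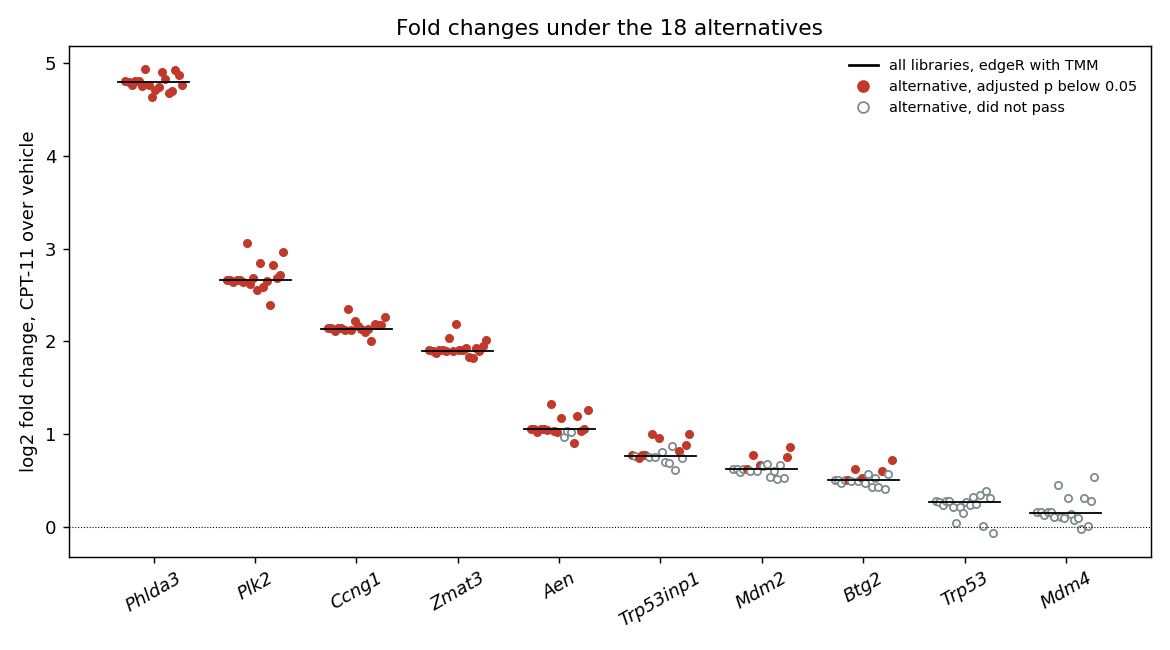
Log2 fold change of each gene under 18 alternative fits (points, filled where the adjusted p was below 0.05) and in the edgeR fit with all libraries (black line). Phlda3, Plk2, Ccng1 and Zmat3 passed in all 18, Aen in 15, Trp53inp1 in 9, Mdm2 and Btg2 in 5 each, and Trp53 and Mdm4 in 0.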

How the data were processed

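RNA sequencing of total RNA gave 8 libraries, in 2 groups by the labelled treatment. The authors' deposited values are estimated counts, one per gene and library and not normalized, with 10.3% to 11.1% of values per library not whole (tolerance 0). Per the submitters' processing notes, Bowtie2 2.4.1 and build GRCm38.p6 were used, while no counting tool or strand setting is named in the sources used here. The 543 rows with no gene name, 0.325% to 0.662% of each library's count, were left out. After rounding, edgeR 4.0.16 (R 4.3.3) compared the groups (TMM scaling, default expression filter, robust quasi-likelihood F test, two-sided), which kept 14011 genes, with Benjamini-Hochberg adjustment over all of them. CPM are relative to TMM-scaled library sizes, and standard errors were derived from the F statistic. The fit was tested on simulated counts. Named are the 10 genes, Cdkn1a, up to 6 genes of each list by p, and the nearest profiles. Which further paralogs to print, and Wrap53, Sesn1 and Ddb2, were chosen after their values were seen. The genes and lists were chosen with earlier results of these data known. Alternatives were other scalings (RLE, upper quartile), other filters, DESeq2 1.42.0, limma-voom 3.58.1 (plain or weighted by library quality), a replicate block, removal of the length trend, and left-out libraries.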

Additional observations from a re-analysis of the deposited data

Results flagged for a closer look

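Ccng1 in CPT-11 replicate 1 stood apart from the rest of its group, at 318 CPM against 226 to 231 CPM in the other 3 CPT-11 libraries. Its gap to the nearest of them was 0.947 of the group's range. Among 24 groups of 4 examined (the 10 genes and the 2 ratios in each treatment), this was the only one flagged, and chance flags about 1 in 20. Without this library Ccng1 still rose (log2 fold change 2.0012, adjusted p = 0.000136).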

How the results depend on the processing

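The number of genes called, 770 with all libraries, was 1884 by DESeq2, 3170 by limma-voom with quality weights, 1299 with the length trend removed, 1212 without CPT-11 replicates 2 and 4, and 236 to 1522 with 1 library left out. Of the 10 genes described, 6 were called, against 5 to 8 in the other settings and 4 to 7 with 1 library left out. The difference in the Mdm2 to Mdm4 ratio (0.48) was 0.30 without CPT-11 replicates 2 and 4 (exact p = 0.133) and 0.34 to 0.55 with 1 library left out. The difference in the Mdm2 to Trp53 ratio ran from 0.16 to 0.61 with 1 library left out. The log2 fold change of Trp53 turned to -0.069 without CPT-11 replicates 2 and 4, and that of Mdm4 ran from -0.0175 to 0.31 with 1 library left out. Among paralogs that were not called, Btg1, Zmat1, Zmat2 and Zmat5 turned to -0.0091, -0.0469, -0.0465 and -0.19 without CPT-11 replicates 2 and 4. Btg1, Zmat1 and Zmat5 turned to -0.044, -0.0651 and -0.0145 with quality weights, and Ccni to 0.0012 with the length trend removed. With 1 library left out, Ccni ran from -0.0918 to 0.0189, Zmat1 from -0.12 to 0.53 and Zmat2 from -0.0114 to 0.13. The causes were not tested.

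With the replicate number as a block, 686 genes were called, 5 of the 10 rose, Trp53inp1 being lost (adjusted p = 0.0761), and the Mdm2 to Mdm4 difference of 0.48 had an exact p of 0.125, the smallest the 16 sign changes allow. The Mdm2 to Trp53 difference kept its value of 0.37 under the block (exact p = 0.5). Correlations of same-numbered libraries' deviations were 0.234, 0.144, -0.119 and 0.0911, and 4 of 8 libraries correlated best with their own number. This does not settle whether the numbers are pairs, because some such matches arise by chance. The labels state no pairing, so the main fit used none, and the block is given as an alternative. Phlda1 (0.0504) and Phlda2 (0.0808) also lost their calls under the block. Phlda3 and Plk2 had 28 to 68 counts per vehicle library, which limits the precision of their folds.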
